A study of Mus musculus with 6 samples.

Results

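The genes described here copy DNA and guard it while it is copied. They are 53 mouse genes taken by name from a list of the pathway: genes of origin licensing and firing, polymerases and their clamp, nucleotide supply, E2F transcription factors with cyclin E, chromatin assembly, homologous recombination, the Fanconi anaemia pathway and the checkpoint kinases. All 53 had a gene ID among the 56941 IDs of the count table, and all 53 passed the filter on low counts. Their counts ran from 56 to 6156 per gene and library.

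The libraries came from CD31-selected lung cells of mouse pups. The hyperoxia group was kept in 75% oxygen from postnatal day 0, the room air group was kept in 21% oxygen, and lungs of both groups were taken on postnatal day 7. No allele, agent or strain other than the oxygen level is given in the labels. CD31 is an adhesion molecule of endothelial cells, and magnetic beads against it can also carry other cells along. RNA-seq of each group gave 3 libraries, and the labels do not say whether each came from its own animal. The p-values therefore rest on the spread among these 6 samples, which may be technical. The values of a gene in the text are in CPM (read counts scaled to a common library size with TMM factors) and are given in the order of libraries 1, 2 and 3 of each group.

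Before a cell divides, the origin recognition complex, CDC6 and CDT1 load the MCM2-7 helicase onto DNA, which is called licensing. The kinase CDC7 and cyclin-dependent kinases then switch licensed origins on by recruiting CDC45 and the GINS complex. Most of the genes for these proteins are switched on at the entry into S phase by activating E2F factors such as E2F1, and are shut down again by the repressing factors E2F7 and E2F8. Homologous recombination and the Fanconi anaemia pathway repair broken or blocked forks, and the kinases ATR with CHK1 and ATM with CHK2 signal such damage. In the lung of the first postnatal weeks, endothelial cells divide while alveolar capillaries form.

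Depth was even, with total counts of 39379793 to 42343192 per library. Pan-endothelial genes were abundant, with Pecam1, the gene for CD31, at 2649, 1932 and 2441 CPM in hyperoxia, against 3109, 2969.6 and 2269 CPM in room air. The surfactant gene Sftpc of alveolar type 2 epithelium was at 8652, 10875 and 9455 CPM in hyperoxia, against 9775, 7650.4 and 12969.8 CPM in room air. The libraries therefore did not hold endothelial RNA alone. Reads of Y-linked genes stood at 157 CPM in hyperoxia 2 and at 129 to 161.5 CPM in the room air libraries, but at no more than 0.0472 CPM in hyperoxia 1 and hyperoxia 3. Room air 2 stood apart from the other room air libraries at the replication genes, and calls that were gained or lost without it are given where the gene is described. In such bulk samples, fewer dividing cells and less RNA of these genes per cell cannot be told apart.

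Few of the 53 genes differed between hyperoxia and room air beyond the spread between libraries, although most leaned lower in hyperoxia. In edgeR's quasi-likelihood test, with p-values adjusted over all 17072 genes tested, 3 of 53 fell in hyperoxia (5.66%, where 4.41% of all genes tested fell) and 0 rose (6.77% of all genes rose). The genes that fell were Rad54l, E2f8 and Cdc45. At an unadjusted p below 0.05 stood 12 of the 53, all lower in hyperoxia. The share of all genes at that unadjusted p was not counted. DESeq2's test called 7 of the 53 lower and 0 higher, where over all genes it called 1242 lower and 1524 higher. The log2 fold change was negative for 48 of 53 genes (90.6%, against 51% of all genes tested), with a median of -0.29 against -0.01 over all genes. The log2 fold changes ran from -1.21 for Rad54l to 0.12 for Atm. The groups did not overlap, with every hyperoxia library below every room air library, for 6 genes (11.3%, where 14.4% of all genes did so). These were Rad54l, E2f8, Cdc45, Cdc7, Chek1 and Fanca. Markers of other cells moved in the same comparison. Of 9 alveolar type 1 markers, 8 rose, with summed levels of 5589 to 7430 CPM in hyperoxia and 2397 to 3440 CPM in room air. Of 6 erythroid markers tested, 2 fell (summed levels of 11.0 to 27.5 CPM in hyperoxia and 32.7 to 52.2 CPM in room air). Of 9 macrophage and monocyte markers, Marco, Cd68 and Itgax rose (log2 fold change 2.22, 0.87 and 0.94) and Chil3 fell (-1.94), and Egfl7 alone of 12 pan-endothelial markers fell (-0.70). Without room air 2, 8 alveolar type 1 markers rose, 0 erythroid markers fell, and 1 macrophage and monocyte marker rose and 1 fell. The part of these cells in the result was not tested.

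**Figure D1:**
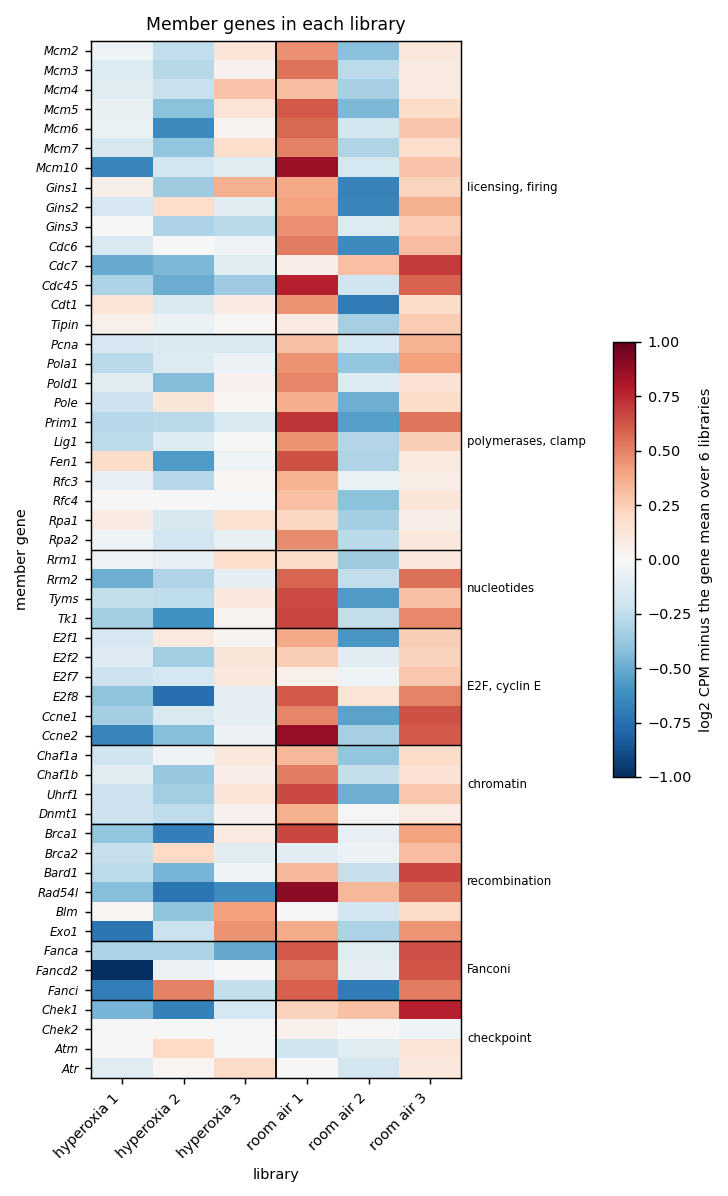
Heat map of the 53 genes, in rows by role, across the 3 hyperoxia and the 3 room air libraries. Colour is log2 CPM minus the mean of that gene over the 6 libraries, from -1 (blue) to 1 (red). Room air 1 and room air 3 are red for most genes, whereas room air 2 is blue for most of them, like hyperoxia 1 and hyperoxia 2. In hyperoxia 3 the median gene is near its mean (0.01).

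Rad54l, which encodes a DNA-dependent motor protein of homologous recombination (ENSMUSG00000028702), showed the largest fall of the 53. It had 2.96, 2.397 and 2.56 CPM in hyperoxia, against 7.404, 4.9996 and 5.86 CPM in room air. Every hyperoxia library was below every room air library, and hyperoxia had a 2.31-fold lower level (log2 fold change with SE, -1.21 ± 0.25; adjusted p = 0.0126). The adjusted p stayed below 0.05 in every alternative test, scaling and filter tried at that threshold, but was 0.0531 without room air 1. In the GENCODE M21 annotation 15.4% of its exonic bases overlap Lrrc41, a gene on the other strand, and reads of such a pair cannot be told apart here because the strand setting of the counting is not given in the sources used here.

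E2f8 encodes an atypical E2F factor that represses E2F targets late in S phase (ENSMUSG00000046179). It had 9.77, 7.66 and 12.1 CPM in hyperoxia, against 19.8, 14.2 and 18.2 CPM in room air. The highest hyperoxia library was below the lowest room air library, and hyperoxia had a 1.76-fold lower level (log2 fold change with SE, -0.82 ± 0.20; adjusted p = 0.0269). The call was lost without hyperoxia 1 (adjusted p = 0.0723), hyperoxia 2 (0.0623), room air 1 (0.096) or room air 3 (0.0548). Of its exonic bases, 11.2% overlap a predicted gene on the other strand.

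Cdc45 encodes the protein that joins MCM2-7 and GINS to form the active helicase (ENSMUSG00000000028). It had 7.58, 6.698 and 7.31 CPM in hyperoxia, against 16.2, 8.21 and 14.2 CPM in room air. The hyperoxia libraries lay close together, and room air 2 was nearly as low as they were. The call was at the threshold (log2 fold change with SE, -0.84 ± 0.24; adjusted p = 0.0497). It was lost on leaving out any library except room air 2 (adjusted p = 0.098 to 0.169), by limma-voom (0.0826) and with library sizes alone (0.0514). It was also lost with the replicate block (0.0667) and when the presence of Y-linked reads was added to the model (0.0965). Without room air 2 the log2 fold change was -1.08 with adjusted p = 0.0117.

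The promoters of these 3 genes and of the helicase genes Mcm5 and Mcm6 are shown because promoters of S phase genes are known to hold E2F sites. Each sequence is the 250 bases before the transcription start in RefSeq on GRCm38.p6, which is not the build of the counts, written 5′ to 3′ on the strand of the gene. Capitals mark exact matches, on either strand, to an E2F motif (TTTCCCGC, TTTGGCGC, TTTCGCGC or TTTGCCGC) or to the CHR motif (TTTGAA or TTCGAA), the cell cycle element of late cell cycle genes. Of the regions shown, the Rad54l one is chr4:116123691-116123940, minus strand, that of E2f8 is chr7:48881597-48881846, minus strand, that of Cdc45 is chr16:18811973-18812222, minus strand, that of Mcm6 is chr1:128359706-128359955, minus strand and that of Mcm5 is chr8:75109259-75109508, plus strand.
Rad54l: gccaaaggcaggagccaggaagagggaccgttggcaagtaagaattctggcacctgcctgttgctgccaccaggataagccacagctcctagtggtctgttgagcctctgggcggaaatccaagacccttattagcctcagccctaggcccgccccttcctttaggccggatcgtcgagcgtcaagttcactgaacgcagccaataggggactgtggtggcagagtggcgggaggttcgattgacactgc
E2f8: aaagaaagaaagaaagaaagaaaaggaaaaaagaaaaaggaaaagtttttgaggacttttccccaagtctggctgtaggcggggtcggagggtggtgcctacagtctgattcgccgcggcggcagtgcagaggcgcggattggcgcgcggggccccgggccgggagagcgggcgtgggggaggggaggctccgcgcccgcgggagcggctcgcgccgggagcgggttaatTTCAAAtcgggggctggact
Cdc45: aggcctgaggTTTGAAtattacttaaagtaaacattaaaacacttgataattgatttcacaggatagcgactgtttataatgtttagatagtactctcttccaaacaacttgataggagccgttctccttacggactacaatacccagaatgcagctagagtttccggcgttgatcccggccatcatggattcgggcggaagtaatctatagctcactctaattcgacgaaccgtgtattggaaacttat
Mcm6: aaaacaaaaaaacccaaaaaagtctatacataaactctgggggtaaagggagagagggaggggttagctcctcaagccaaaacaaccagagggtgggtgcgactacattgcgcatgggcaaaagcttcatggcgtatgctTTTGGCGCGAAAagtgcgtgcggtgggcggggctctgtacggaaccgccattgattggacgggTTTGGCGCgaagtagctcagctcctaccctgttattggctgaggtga
Mcm5: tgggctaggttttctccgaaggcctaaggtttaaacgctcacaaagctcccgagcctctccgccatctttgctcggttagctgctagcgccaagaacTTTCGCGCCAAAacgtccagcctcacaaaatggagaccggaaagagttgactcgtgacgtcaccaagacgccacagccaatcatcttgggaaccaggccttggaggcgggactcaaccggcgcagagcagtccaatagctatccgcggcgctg
The Mcm6 region held 3 E2F matches, of which a pair overlaps, the Mcm5 region held 2 that overlap, and the other 3 regions held none. The E2f8 and Cdc45 regions held 1 CHR match each, and the Rad54l region held none.

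RefSeq promoter windows, from 250 bases before to 50 bases after a start, were at hand for 45 of the 53 genes. An E2F match stood in at least 1 window of 18 of these 45 genes (40%), against 2.6% of all 27025 genes with a window, whether or not they were tested here. Among the MCM2-7 genes, Mcm3, Mcm5, Mcm6 and Mcm7 had a match, Mcm2 had none, and no window was at hand for Mcm4. The CHR motif stood in 12 of the 45 genes (26.7%), against 21.7% of all genes. In a list of 26 genes of G2 and mitosis, 23 had a window, of which 1 (4.35%) held an E2F match and 18 (78.3%) a CHR match. Matches to different motifs were counted separately, also where they share bases. The CCAAT box (CCAAT on either strand) stood in 28 of the 45 genes (62.2%) and in 18 of the 23 genes of G2 and mitosis (78.3%), against 41.1% of all genes. A match describes the letters of the window and is not a binding site.

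**Figure D2:**
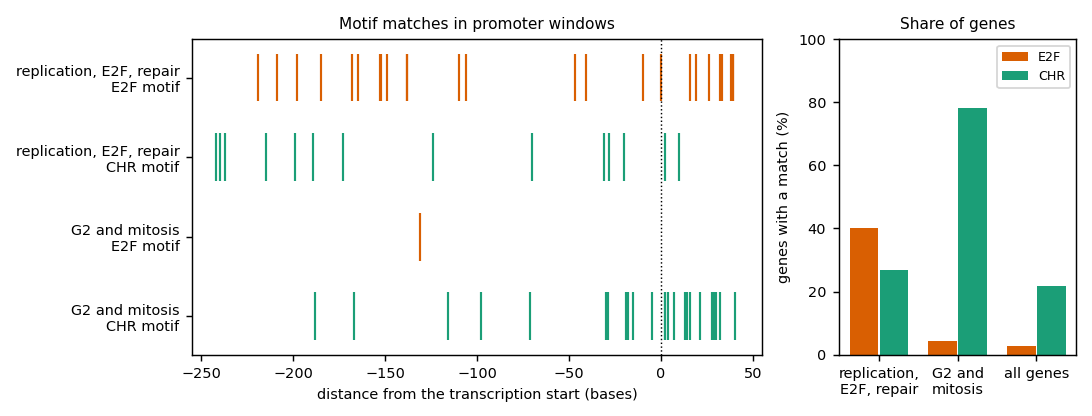
Left, position of each E2F match (orange) and CHR match (green) relative to the transcription start, for the 45 replication, E2F and repair genes and the 23 genes of G2 and mitosis with a promoter window; a tick is 1 match. Right, percent of genes with at least 1 match, with all 27025 genes that have a promoter window for comparison: E2F matches are in 40%, 4.35% and 2.6% of genes, and CHR matches in 26.7%, 78.3% and 21.7%.

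The room air group was not uniform at these genes. Room air 2 was the lowest room air library for 48 of the 53 genes (90.6%), which held for 32.2% of all genes tested. It lay below all 3 hyperoxia libraries for 25 genes (47.2%, against 32.9% of all genes tested), among them for 22 and above them for 6. By contrast, room air 1 lay above all hyperoxia libraries for 47 genes and room air 3 for 42. Shares of all genes tested were not counted for a room air library lying among or above the hyperoxia libraries. Taking the mean of room air 1 and room air 3 as 100%, the median gene stood at 71.9% in hyperoxia and at 63.9% in room air 2, and at 99.6% and 99.7% over all genes tested. Summed over the 53 genes, the libraries held 1288, 1191 and 1480 CPM in hyperoxia, against 1906, 1178 and 1650 CPM in room air. Without room air 2, 9 genes fell (17%, where 2.12% of all genes tested fell) and 0 rose (3.85% of all genes rose), and the median log2 fold change was -0.48. The 9 were Rad54l, E2f8, Cdc45, Pcna, Prim1, Rrm2, Tk1, Ccne2 and Fanca. Room air 2 was singled out for its low values at these same genes, and leaving it out raises the room air mean for most of them. The larger number of calls and the lower median therefore partly follow from that choice.

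Some markers of other cells were also lowest in room air 2 among the room air libraries. This held for 6 of 6 neutrophil markers tested, 7 of 7 lymphocyte markers, 7 of 9 macrophage and monocyte markers and 5 of 7 alveolar type 2 markers. Summed neutrophil markers were at 83.5, 76.0 and 37.7 CPM in hyperoxia, against 91.5, 30.4 and 66.3 CPM in room air. Summed lymphocyte markers were at 257, 257 and 189 CPM in hyperoxia, against 242.5, 217 and 365 CPM in room air, and summed macrophage and monocyte markers at 263, 353 and 257 CPM in hyperoxia, against 192, 174 and 307 CPM in room air. No marker of these 3 lists was at 0 in all libraries, but Ly6g and Elane averaged at most 0.194 CPM in either group. Room air 2 was also the lowest room air library for 5 of 8 mesenchymal markers. Other lists went the other way, with room air 2 the lowest room air library for 0 of 12 pan-endothelial markers, 0 of 9 alveolar type 1 markers and 1 of 6 erythroid markers tested. The part of these cells in the level of the replication genes was not tested.

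**Figure D3:**
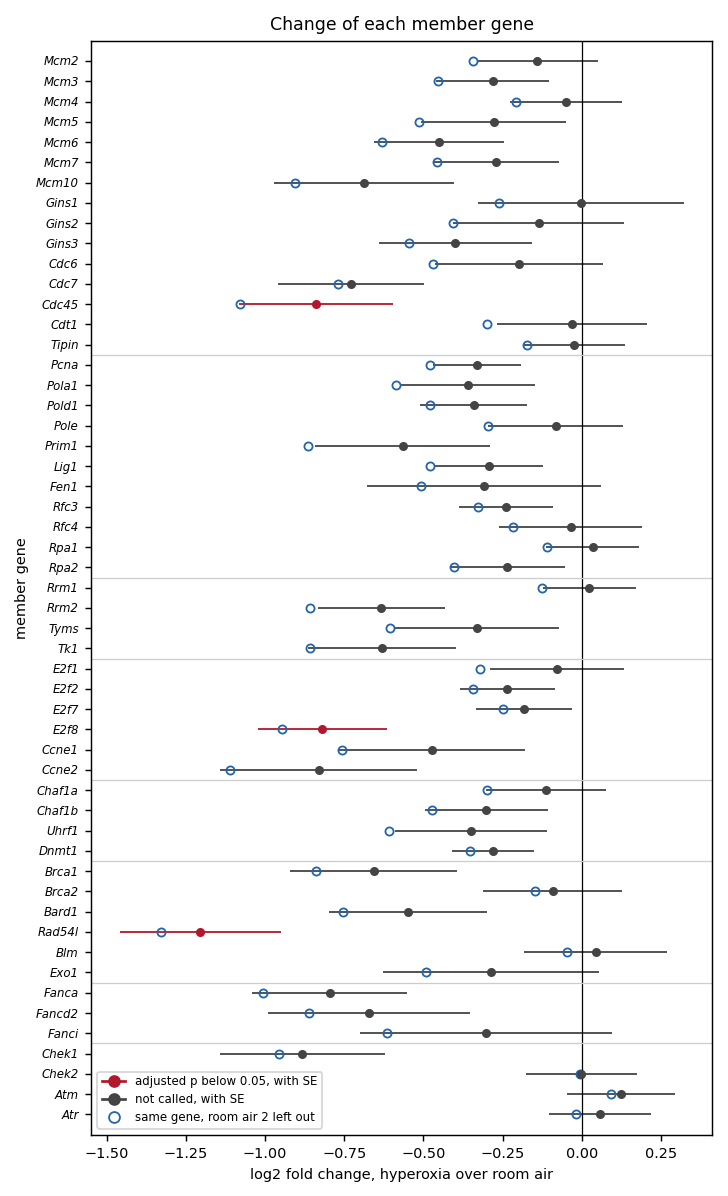
Log2 fold change of each of the 53 genes, hyperoxia over room air, with its SE as a bar (filled points; red, adjusted p below 0.05) and the same value with room air 2 left out (open circles). The 3 red points are Cdc45, E2f8 and Rad54l, and leaving out room air 2 shifted most genes to the left (median -0.48 without it and -0.29 with it). Room air 2 was singled out for its low values at these same genes, so part of this shift follows from that choice.

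Among the genes of origin licensing and firing, Cdc45 fell and 14 of 15 did not pass. All 15 log2 fold changes were negative, with a median of -0.27. Cdc7, the kinase gene that triggers firing, had 4.68, 4.84 and 6.09 CPM in hyperoxia, against 6.94, 8.16 and 10.8 CPM in room air. Its hyperoxia libraries were all below its room air libraries, and room air 2 was not the lowest (log2 fold change with SE, -0.73 ± 0.23; adjusted p = 0.0687). Cdc7 was called by DESeq2's test and with no filter on low counts. Mcm10, a factor for helicase activation, had 3.73, 5.14 and 5.38 CPM in hyperoxia, against 10.6, 5.18 and 7.17 CPM in room air, with room air 2 inside the range of the hyperoxia libraries (log2 fold change -0.69, adjusted p = 0.158).

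The 6 genes of the MCM2-7 helicase, a ring with 1 copy of each subunit, shared a pattern across libraries, with room air 1 the highest library for all 6. The lowest was room air 2 for Mcm2, Mcm4 and Mcm5 and hyperoxia 2 for Mcm3, Mcm6 and Mcm7. Mcm5 had 65.3, 51.7 and 75.1 CPM in hyperoxia, against 105, 50.3 and 77.9 CPM in room air, with room air 2 below every hyperoxia library (log2 fold change -0.28, adjusted p = 0.496). Mcm6 had 83.9, 56.4 and 89.95 CPM in hyperoxia, against 131, 77.2 and 107 CPM in room air, with hyperoxia 2 the lowest library and room air 1 the highest (log2 fold change -0.45, adjusted p = 0.201). Mcm6 was called lower with no filter on low counts and when the presence of Y-linked reads was added to the model. The log2 fold changes of Mcm2, Mcm3, Mcm4 and Mcm7 were -0.14, -0.28, -0.05 and -0.27. Mcm3 had 84.2, 76.5 and 95.6 CPM in hyperoxia, against 135, 77.5 and 98.5 CPM in room air. Of the exonic bases of Mcm7, 12.6% overlap other genes. Leaving out room air 2 gave -0.34, -0.45, -0.21, -0.51, -0.63 and -0.46 for Mcm2 to Mcm7, with 0 of the 6 called. Levels per kilobase of exon use the merged exons of all annotated transcripts of a gene. These can be longer than its RNA, so such levels compare different genes only roughly. Mcm3 had the highest CPM per kilobase of these 15 genes (22.8 in hyperoxia and 27.7 in room air). The others of the ring were between 10.2 (Mcm2) and 16.5 (Mcm6) CPM per kilobase in hyperoxia and between 11.2 (Mcm2) and 22.5 (Mcm6) in room air.

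The licensing factors Cdt1 and Cdc6 spread more within room air than between the group means. Cdt1, which loads MCM2-7 together with CDC6, had 28.4, 23.5 and 27.6 CPM in hyperoxia, against 35.5, 16.02 and 29.5 CPM in room air. Room air 2 was the lowest of all 6 libraries for Cdt1, and the group difference was near 0 (log2 fold change with SE, -0.03 ± 0.24; adjusted p = 0.954). Cdc6 had 8.29, 9.24 and 8.99 CPM in hyperoxia, against 13.1, 5.92 and 11.4 CPM in room air, again with room air 2 the lowest library (log2 fold change -0.20, adjusted p = 0.695). Gins1, which encodes a GINS subunit, had 3.97, 2.99 and 4.8999 CPM in hyperoxia, against 5.01, 2.398 and 4.46 CPM in room air with the smallest difference of the licensing genes (log2 fold change with SE, -0.0018 ± 0.33; adjusted p = 0.998). Gins2 and Gins3 had log2 fold changes of -0.14 and -0.40, and 67.3% of the exonic bases of Gins2 overlap a gene on the other strand. Tipin encodes the partner of TIMELESS in the complex that steadies forks, and it had 22.6, 20.9 and 22.01 CPM in hyperoxia, against 23.1, 17.4 and 26.04 CPM in room air (log2 fold change -0.02, adjusted p = 0.947). Timeless itself, which is outside the 53 genes, fell to 25.5, 22.1 and 28.2 CPM in hyperoxia, against 42.9, 66.96 and 58.1 CPM in room air (log2 fold change with SE, -1.15 ± 0.17; adjusted p = 0.00192), and room air 2 was its highest library.

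**Figure D4:**
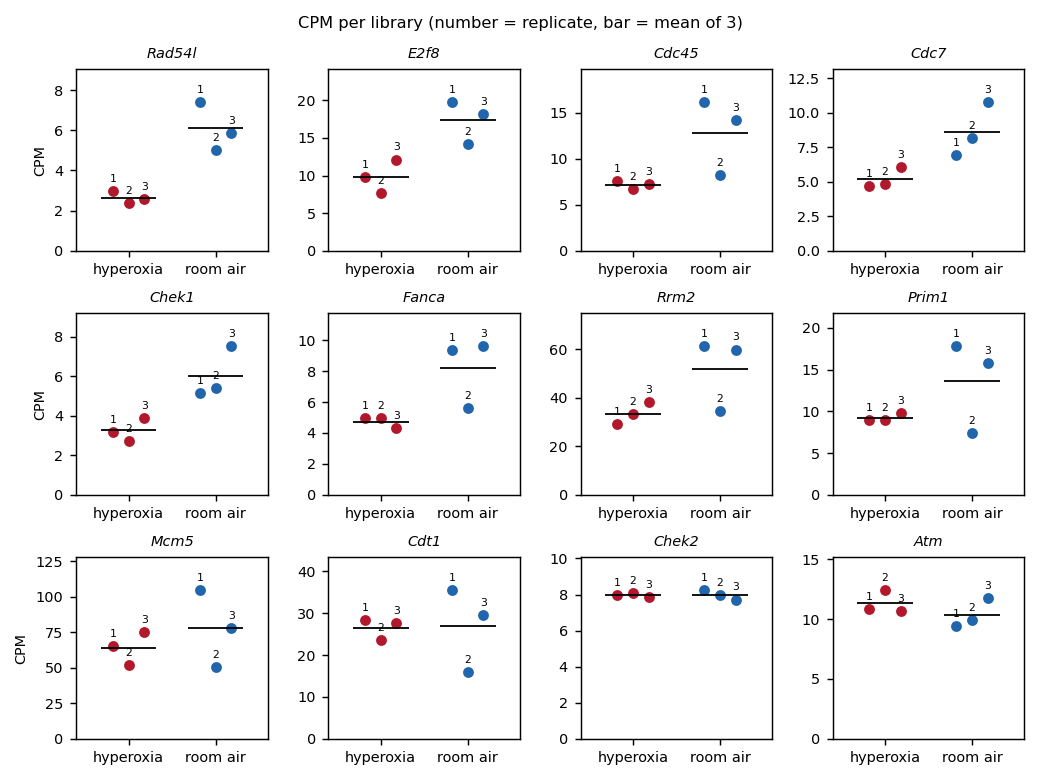
CPM of 12 of the 53 genes in each library of hyperoxia (red) and room air (blue); numbers are replicates and black bars are means of 3. In the first 6 panels (Rad54l, E2f8, Cdc45, Cdc7, Chek1 and Fanca) the groups do not overlap, in Rrm2, Prim1, Mcm5 and Cdt1 room air 2 lies within or below the range of the hyperoxia libraries, and Chek2 and Atm show similar levels in both groups.

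None of the 11 genes for polymerases, clamp, clamp loader and Okazaki fragment processing passed with all libraries, and their median log2 fold change was -0.29. Prim1, the primase subunit that starts new strands, had 8.92, 9.02 and 9.7998 CPM in hyperoxia, against 17.8, 7.42 and 15.8 CPM in room air. Room air 1 and room air 3 were far above the hyperoxia libraries and room air 2 was below them (log2 fold change with SE, -0.57 ± 0.28; adjusted p = 0.235; leaving out room air 2, -0.86 with adjusted p = 0.0208). Pcna, the sliding clamp gene, had 50.8, 51.7 and 51.3 CPM in hyperoxia, against 70.03, 50.5 and 72.8 CPM in room air. Its 3 hyperoxia libraries differed by under 1 CPM and room air 2 stood just beneath them (log2 fold change with SE, -0.33 ± 0.14; adjusted p = 0.163; leaving out room air 2, -0.48 with adjusted p = 0.0279). Rpa1, for the large subunit of the single-strand binding protein, had 86.9, 73.6 and 91.4 CPM in hyperoxia, against 94.996, 64.9 and 85.9 CPM in room air, the most positive value of this set (log2 fold change with SE, 0.03 ± 0.15; adjusted p = 0.915). Per kilobase of exon Pcna was the highest of the 11, at 21.4 CPM per kilobase in hyperoxia and 26.8 in room air. The polymerase genes Pola1, Pold1 and Pole had log2 fold changes of -0.36, -0.34 and -0.08, the ligase gene Lig1 -0.29, the clamp loader genes Rfc3 and Rfc4 -0.24 and -0.04, and Rpa2 -0.23. Of the exonic bases of Rfc4, 12.7% overlap Eif4a2 on the other strand. Fen1, the flap nuclease gene, averaged 1.897 ± 0.477 CPM in hyperoxia and 2.35 ± 0.779 CPM in room air (SD, n = 3 each), and 84.2% of its exonic bases overlap genes on the other strand, so its counts are uncertain.

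None of the 4 genes of nucleotide supply passed in the main comparison (median log2 fold change -0.48). Rrm2 encodes the S phase subunit of ribonucleotide reductase, which makes deoxynucleotides, and had 29.1, 33.2 and 38.2 CPM in hyperoxia, against 61.4, 34.5 and 59.9 CPM in room air. Hyperoxia 3 and room air 2 crossed, so the groups overlapped (log2 fold change with SE, -0.63 ± 0.20; adjusted p = 0.0701; leaving out room air 2, -0.86 with adjusted p = 0.00865). DESeq2's test called Rrm2 with all libraries, as did edgeR with no filter on low counts. Rrm1, the gene of the partner subunit that is present through the cell cycle, had 79.1, 76.7 and 91.8 CPM in hyperoxia, against 92.7, 63.4 and 87.4 CPM in room air, with groups that overlap (log2 fold change with SE, 0.02 ± 0.15; adjusted p = 0.94). Tk1, the S phase thymidine kinase gene, had 16.1, 13.4 and 20.9 CPM in hyperoxia, against 32.4, 17.2 and 28.4 CPM in room air (log2 fold change -0.63, adjusted p = 0.115; leaving out room air 2, -0.86 with adjusted p = 0.0353). With all libraries and no filter on low counts, Tk1 was called lower by edgeR (adjusted p = 0.0022). Tyms, for thymidylate synthase, had 14.4, 14.3 and 18.3 CPM in hyperoxia, against 26.7, 11.5 and 20.9 CPM in room air, with room air 2 the lowest library (log2 fold change -0.33, adjusted p = 0.475). Rrm2 was the highest of the 4 per kilobase of exon, at 12.1 CPM per kilobase in hyperoxia and 18.8 in room air. This order rests on merged exon lengths of 2771 bases for Rrm2 and 11012 for Rrm1, and in CPM Rrm1 was the higher. The difference between Rrm1 and Rrm2 in response was not tested.

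Of the E2F and cyclin E genes, E2f8 fell and the other 5 did not pass. Ccne2, a cyclin E gene that drives entry into S phase, had 3.49, 4.13 and 5.31 CPM in hyperoxia, against 10.1, 4.39 and 8.47 CPM in room air. Room air 2 lay within the hyperoxia range, far below room air 1 and room air 3 (log2 fold change with SE, -0.83 ± 0.31; adjusted p = 0.119; leaving out room air 2, -1.11 with adjusted p = 0.0389). With all libraries and no filter on low counts, Ccne2 was called lower by edgeR (adjusted p = 0.0199). Of the exonic bases of Ccne2, 17.4% overlap Ints8 on the other strand. Ccne1, the other cyclin E gene, had 4.46, 5.07 and 5.28 CPM in hyperoxia, against 7.91, 3.88 and 8.76 CPM in room air (log2 fold change -0.47, adjusted p = 0.357). E2f1, the activating factor, had 26.9, 32.3 and 30.8 CPM in hyperoxia, against 39.2, 20.1 and 35.7 CPM in room air. Room air 2 was the lowest of the 6 libraries for E2f1, and the group difference was small (log2 fold change with SE, -0.08 ± 0.21; adjusted p = 0.86). E2f1 had the highest level per kilobase of exon in this set, at 9.51 CPM per kilobase in hyperoxia and 10.04 in room air. E2f2, an activator, and E2f7, the repressor paired with E2F8, had log2 fold changes of -0.24 and -0.18, with neither called. Whether E2f8 and E2f7 differed in response was not tested.

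Genes that rebuild chromatin behind the fork did not pass (0 of 4). Uhrf1, which guides DNMT1 to newly copied DNA, had 39.8, 36.03 and 50.2 CPM in hyperoxia, against 72.6, 32.7 and 55.3 CPM in room air, with a wide spread in room air (log2 fold change with SE, -0.35 ± 0.24; adjusted p = 0.408). Dnmt1, the maintenance methyltransferase gene and the highest of the set per kilobase of exon (14.4 CPM per kilobase in hyperoxia and 17.5 in room air), had 101, 97.6 and 120.0 CPM in hyperoxia, against 149, 116 and 122 CPM in room air (log2 fold change -0.28, adjusted p = 0.208). Chaf1a, a subunit of the histone chaperone CAF-1, had 15.2, 17.1 and 18.8 CPM in hyperoxia, against 21.97, 13.4 and 19.9 CPM in room air (log2 fold change -0.11, adjusted p = 0.763), and 52.5% of its exonic bases overlap Ubxn6. Chaf1b had a log2 fold change of -0.30.

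Among 6 genes of homologous recombination and resection, Rad54l fell and 5 did not pass. Brca1 and Bard1, whose proteins form a ubiquitin ligase at breaks, had log2 fold changes of -0.66 and -0.55 (adjusted p = 0.145 and 0.201). Brca1 had 5.36, 4.37 and 7.46 CPM in hyperoxia, against 11.2, 6.63 and 9.32 CPM in room air, and hyperoxia 3 was above room air 2. Brca2, a tumour suppressor gene of homologous recombination, stood at 6.24 ± 0.9801 CPM in hyperoxia and 6.66 ± 1.098 CPM in room air (SD, n = 3 each; log2 fold change -0.09). Blm, a helicase gene and the highest of the 6 per kilobase of exon in hyperoxia (1.12 CPM per kilobase in hyperoxia and 1.08 in room air), had 9.62, 7.19 and 12.6 CPM in hyperoxia, against 9.36, 8.32 and 10.9 CPM in room air, with hyperoxia 3 the highest library (log2 fold change with SE, 0.04 ± 0.23; adjusted p = 0.93). In room air, Bard1 was higher than Blm, at 1.604 CPM per kilobase. Bard1 had 6.15, 5.34 and 7.13 CPM in hyperoxia, against 9.24, 6.28 and 11.7 CPM in room air. Exo1, a resection nuclease gene, had a log2 fold change of -0.29.

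None of the 3 Fanconi anaemia genes passed in the main comparison. With all libraries, Fanca was called lower by DESeq2's test (adjusted p = 0.0178) and with no filter on low counts (0.0226). Fanca, part of the core complex that marks blocked forks, had 4.94, 4.94 and 4.32 CPM in hyperoxia, against 9.39, 5.64 and 9.63 CPM in room air. Its hyperoxia libraries were all below its room air libraries (log2 fold change with SE, -0.80 ± 0.25; adjusted p = 0.0635; leaving out room air 2, -1.01 with adjusted p = 0.0289). Fancd2 and Fanci encode the pair that this complex modifies. Fanci had 2.21, 5.07 and 3.02 CPM in hyperoxia, against 5.396, 2.19 and 5.09 CPM in room air, with a more than 2-fold spread within each group (log2 fold change with SE, -0.30 ± 0.40; adjusted p = 0.691), and Fancd2 a log2 fold change of -0.67. Of the exonic bases of Fanca and Fanci, 10.5% and 15.95% overlap a gene on the other strand. Per kilobase of exon Fanci was the highest of the 3 in hyperoxia, at 0.594 CPM per kilobase against 0.5404 for Fanca. Fanca was the highest in room air, at 0.938 CPM per kilobase against 0.732 for Fanci.

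The checkpoint kinase genes did not share 1 pattern. Chek1, the kinase gene of the replication checkpoint, had 3.17, 2.74 and 3.88 CPM in hyperoxia, against 5.15, 5.38 and 7.53 CPM in room air, and every hyperoxia library was below every room air library. It missed the threshold (log2 fold change with SE, -0.88 ± 0.26; adjusted p = 0.0532) and passed by DESeq2's test, with no filter on low counts and when genes had to reach 1 CPM in 3 libraries. Chek2, for the kinase downstream of ATM, had 7.97, 8.06 and 7.87 CPM in hyperoxia, against 8.25, 7.96 and 7.72 CPM in room air. All 6 libraries of Chek2 lay close together (log2 fold change with SE, -0.002 ± 0.18; adjusted p = 0.995), and its level per kilobase of exon was the highest of the 4 (2.65 CPM per kilobase in hyperoxia and 2.66 in room air). Atm had 10.8, 12.4 and 10.7 CPM in hyperoxia, against 9.39, 9.95 and 11.8 CPM in room air (log2 fold change with SE, 0.12 ± 0.17; adjusted p = 0.704), and Atr a log2 fold change of 0.06. For Chek1 and Cdc7, room air 2 was at 84.9% and 92.1% of the mean of room air 1 and room air 3, whereas for Cdt1, Cdc6, Gins2 and Tyms it was at 49.3%, 48.3%, 48.7% and 48.1%. In hyperoxia the same 4 genes averaged 81.4%, 72.2%, 75.5% and 65.7% of that mean, and Chek1 and Cdc7 51.5% and 58.7%. These genes are examples, and other genes were low in both. Ccne2, Prim1 and Ccne1 were at 47.2%, 44.2% and 46.5% of that mean in room air 2. In hyperoxia they averaged 46.4%, 55.01% and 59.2% of it.

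Genes of G2 and mitosis gave a different picture in the same libraries. All 26 of that list fell, where 4.41% of all genes tested fell. Their median log2 fold change was -1.09 against -0.29 for the 53 replication genes. The groups overlapped for none of the 26, where 14.4% of all genes tested were lower without overlap. Without room air 2 all 26 fell, with a median of -1.26. Kif23, a kinesin gene of cytokinesis, fell to 17.7, 11.5 and 21.8 CPM in hyperoxia, against 52.4, 40.2 and 50.7 CPM in room air (log2 fold change with SE, -1.49 ± 0.21; adjusted p = 0.0016). Nuf2, a kinetochore gene, had a log2 fold change of -1.41, and the spindle midzone gene Prc1 had one of -1.40. Room air 2 was the lowest room air library for all 26, as for 48 of the 53 replication genes. It lay above all hyperoxia libraries for 26 of 26 against 6 of 53. In both lists these are the genes whose groups did not overlap, so this restates that count. The share of all genes tested with room air 2 above all hyperoxia libraries was not counted. Relative to the mean of room air 1 and room air 3, the median gene of G2 and mitosis was at 41.7% in hyperoxia and at 68.3% in room air 2, where the replication genes were at 71.9% and 63.9%. No test of the difference between the lists was made. Both lists were chosen with earlier results of these data known.

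**Figure D5:**
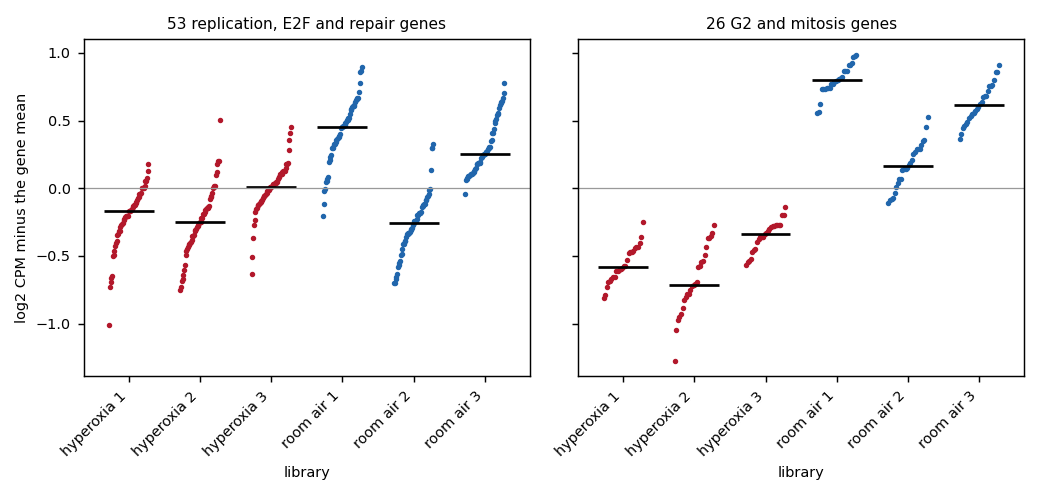
Log2 CPM minus the gene mean over the 6 libraries, for the 53 replication, E2F and repair genes (left) and the 26 genes of G2 and mitosis (right), in the 3 hyperoxia libraries (red) and the 3 room air libraries (blue). Each point is a gene, sorted within its library, and the black bar is the median. On the left room air 2 (median -0.26) sits just below the hyperoxia libraries (-0.25 to 0.01), and on the right it sits above them (0.16 against -0.71 to -0.34).

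Further genes of the same pathways, 169 in the table and 168 tested, held 15 that fell and 4 that rose, and their median log2 fold change was -0.21. Over all genes tested, 4.41% fell and 6.77% rose, and without room air 2 these shares were 2.12% and 3.85%. Without room air 2, 14 fell and 3 rose. Of the genes named next, the calls of Mthfd1 (adjusted p = 0.0724), Cdc25a (0.0579), Faap100 (0.0665), Ccnd1 (0.0761) and Cdk6 (0.121) were lost without it. Among licensing, firing and fork genes, 5 of 38 fell and 0 rose, led by Timeless, the topoisomerase gene Top2a (log2 fold change -1.08, adjusted p = 0.00848), which is known as a late cell cycle gene as well, and Pclaf (log2 fold change -0.86, adjusted p = 0.0412), for a PCNA-binding protein. Among E2F partners, cyclin A and related regulators, 4 of 15 fell and 1 rose. Cyclin A2, encoded by Ccna2, acts in S phase and G2 and fell to 18.9, 24.6 and 26.9 CPM in hyperoxia, against 63.6, 33.9 and 54.1 CPM in room air (log2 fold change with SE, -1.10 ± 0.21; adjusted p = 0.00845). Foxm1, the activator of mitotic genes (log2 fold change -0.88, adjusted p = 0.00313), and the phosphatase gene Cdc25a (log2 fold change -0.51, adjusted p = 0.0211) fell too, and Tfdp2, a partner of E2F proteins, rose (log2 fold change 0.65, adjusted p = 0.00516). Of 9 other chromatin genes, 2 fell, the methyltransferase gene Ezh2 (log2 fold change -0.75, adjusted p = 0.00854) and the histone chaperone gene Nasp (log2 fold change -0.65, adjusted p = 0.0208). Of 12 other genes of nucleotide metabolism, 1 rose, the folate enzyme gene Mthfd1 (log2 fold change 0.66, adjusted p = 0.017), and 0 fell.

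Among the other repair genes, 1 of 21 further recombination genes fell (the nuclease subunit gene Eme1, log2 fold change -1.21, adjusted p = 0.0205), 1 of 14 further Fanconi genes (Faap100, log2 fold change -0.80, adjusted p = 0.0151) and 1 of 12 further checkpoint genes (H2afx, the gene for histone H2AX, log2 fold change -1.0, adjusted p = 0.00425). In base excision and single-strand break repair, 1 of 16 tested genes fell and 0 rose. This was Neil3, a glycosylase for oxidised bases, at 6.91, 6.01 and 5.66 CPM in hyperoxia, against 14.1, 11.2 and 17.4 CPM in room air (log2 fold change with SE, -1.20 ± 0.20; adjusted p = 0.00401), with room air 2 the lowest room air library. No gene of mismatch repair (0 of 7) or end joining (0 of 8) passed in either direction. With 4.41% of all genes tested falling and 6.77% rising, counts of 0 or 1 in such short lists do not set them apart. In nucleotide excision repair and translesion synthesis, 2 of 16 rose and 0 fell. Polk, a translesion polymerase gene, had 19.3, 28.8 and 22.2 CPM in hyperoxia, against 7.14, 13.4 and 9.56 CPM in room air (log2 fold change with SE, 1.23 ± 0.23; adjusted p = 0.00741), and Ercc5, an excision nuclease gene, had 30.4, 40.9 and 31.02 CPM in hyperoxia, against 17.3, 23.2 and 21.4 CPM in room air (log2 fold change with SE, 0.73 ± 0.16; adjusted p = 0.0155). The median log2 fold change of that list was 0.15, the most positive of the pathway lists. Of the 5 G1 cyclin and kinase genes, Ccnd2 (log2 fold change 0.70, adjusted p = 0.00984) and Ccnd1 (log2 fold change 0.59, adjusted p = 0.0171) rose and Cdk6 fell (log2 fold change -0.44, adjusted p = 0.0438). Cdkn1a, the gene for the CDK and PCNA inhibitor p21, was at 682, 785 and 738 CPM in hyperoxia, against 81.1, 100.3 and 94.4 CPM in room air (log2 fold change with SE, 3.0 ± 0.14; adjusted p = 2.8e-06), with room air 2 the highest room air library.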

How the data were processed

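The deposited values are raw counts per Ensembl gene ID, 1 column per library. Per the submitters' processing notes, the authors used HISAT2 2.2.1, featureCounts, Subread 2.0.6, DESeq2 and GRCm39. Annotation release, strand setting and multimapper handling were not given in the sources used here, so counts of overlapping, antisense and near-identical genes are uncertain. Symbols were taken by ID for 51948 of 56941 IDs. The members and lists were chosen with earlier results of these data known.

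Counts were filtered with filterByExpr (minimum count 10, minimum total 15), which left 17072 genes, scaled by TMM and compared by the robust quasi-likelihood test of edgeR 4.0.16 in R 4.3.3 on all 6 libraries, hyperoxia against room air with no covariate. Adjusted p-values are by Benjamini and Hochberg over all genes tested and come from this test unless another is named. Genes below 0.05 were called. The SE was taken as the fold change (log2) divided by the root of the F statistic. Alternatives used DESeq2 1.42.0 and limma 3.58.1, other scalings, filters and thresholds, each library left out, the replicate block and Y-linked read status. The test was tried on simulated counts. No library was a duplicate of another in its group (chi-square over degrees of freedom at least 15.3 for every pair). Exonic lengths and overlaps are from GENCODE M21 (GRCm38), which the authors need not have used. Lengths merge the exons of all transcripts of a gene. Values in every library were given for called members, for members called with a library left out, and for the extremes and the highest level per kilobase of each role; other pathway genes were named up to 3 per list and direction among those called. Mcm10, Mcm5, Mcm6, Cdt1, Cdc6, Cdc7, Tipin, Tyms, Ccne1 and Brca1 were chosen for values in every library after these were seen. Of the other pathway genes, 1 symbol had no match and is not analysed here.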

Additional observations from a re-analysis of the deposited data

How the results depend on the processing

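With other settings, the count of the 53 genes called lower (3) became 7 by DESeq2's test, 10 with no filter on low counts, 0 at an adjusted p of 0.01, 7 at 0.1 and 1 without hyperoxia 2 and room air 3 together. With 1 library left out it ran from 0 to 9: 0 without room air 1, 9 without room air 2, 1 without room air 3, 1 without hyperoxia 1, 1 without hyperoxia 2 and 2 without hyperoxia 3. The median log2 fold change ran from -0.48 to -0.13. No gene of the 53 was called higher in any alternative run, and those called in the main comparison kept their direction in all of them. The 753 genes called lower became 1242 by DESeq2's test, 1223 with a term for Y-linked reads, 1243 with no filter, 233 at 0.01, 1235 at 0.1 and 376 to 749 with 1 library left out. The 1156 called higher became 556 at 0.01 and 681 to 1095 with 1 library left out. Of the other pathway genes, the 15 called lower became 25 by DESeq2's test, 9 at 0.01, 24 at 0.1 and 9 to 14 with 1 library left out, and the 4 called higher became 7 with no filter, 2 at 0.01 and 2 to 5 with 1 library left out. The 26 genes of G2 and mitosis called lower became 19 at 0.01, 19 without hyperoxia 2 and room air 3 together, and 20 to 26 with 1 library left out. The cause was not tested.

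The sign of the log2 fold change turned in at least 1 alternative for 18 of the 53 genes, none of them called. With 1 library left out it ran from -0.34 to 0.073 for Mcm2, -0.23 to 0.092 for Mcm4, -0.26 to 0.19 for Gins1, -0.41 to 0.025 for Gins2, -0.47 to 0.0197 for Cdc6, -0.30 to 0.21 for Cdt1, -0.17 to 0.11 for Tipin, -0.30 to 0.084 for Pole, -0.22 to 0.11 for Rfc4, -0.11 to 0.15 for Rpa1, -0.13 to 0.12 for Rrm1, -0.32 to 0.093 for E2f1, -0.30 to 0.025 for Chaf1a, -0.22 to 0.049 for Brca2, -0.19 to 0.23 for Blm, -0.027 to 0.014 for Chek2 and -0.038 to 0.13 for Atr. With a term for Y-linked reads it was 0.070 for Gins2, 0.053 for Pole, -0.16 for Rpa1, -0.081 for Rrm1, 0.029 for E2f1, 0.14 for Brca2, -0.40 for Blm, 0.26 for Fanci and 0.014 for Chek2. Without hyperoxia 2 and room air 3 it was 0.058 for Mcm4, 0.25 for Gins1, 0.10 for Cdt1 and 0.13 for Tipin. By limma-voom it was 0.028 for Gins1 and 0.036 for Cdt1, with no filter 0.0024 for Gins1 and 0.0012 for Chek2, and with upper-quartile scaling -0.0038 for Rrm1.

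Replicate numbers are shared by the groups but did not pair the libraries (correlations of deviations between same numbers of 0.112, -0.0389 and -0.0899). With the replicate block, 2 of the 53 genes (Rad54l and E2f8, not Cdc45), 13 other pathway genes and 24 genes of G2 and mitosis were called lower, 4 other pathway genes were called higher, and over all genes 514 were lower and 881 higher. The median log2 fold change was -0.26, and with the block it was 0.036 for Gins1 and 0.038 for Cdt1. The lowest member count was 56 reads, so depth limits genes such as Fen1 and Fanci more than the MCM genes.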
